A study of Homo sapiens with 18 samples.

Results

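LNCaP cells, a human prostate cancer line, were compared after 6 h with 10 nM dihydrotestosterone (DHT) and after 6 h with vehicle alone. The members were the 6 samples of these 2 groups, 3 biological replicates each, out of 18 samples in 6 groups, and all 27574 genes whose row in the comparison carried a gene symbol, out of 27599 rows. Both groups had first been grown for 48 h in charcoal-stripped serum, a serum depleted of steroids. The vehicle group then received ethanol plus DMSO, the solvents of the hormone and of the test compounds, and the DHT group received DHT plus DMSO. Of the other 4 groups, 2 received DHT with enzalutamide at 1.5 µM or VPC-13789 at 3 µM, and 2 received either compound with ethanol, at doses that the labels do not state. The polyadenylated RNA was read on a BGISEQ-500 instrument. All samples came from 1 cell line, grown from a lymph node metastasis, so the p-values measure the spread between its cultures.

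DHT is the most potent natural androgen. Steroid hormones act through receptors that, once bound, shed their chaperones, enter the nucleus and bind DNA as dimers, in the prostate usually at distal enhancers opened by pioneer factors such as FOXA1. In prostate luminal cells androgens induce secretory proteins, among them prostate-specific antigen, and in prostate cancer they sustain growth, which is why androgen deprivation and antiandrogens are used as treatment. The comparison asks which genes answered the hormone within hours.

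The adjacent genes KLK3 and KLK2 on chromosome 19, which encode prostate-specific antigen and kallikrein 2, both rose with DHT. The 250 bases before their transcription starts are shown because these related promoters each hold 1 exact match to a steroid receptor half-site at nearly the same distance. The letters searched were AGAACA and GGAACA, and a less exact second half-site beside a match was searched for only through the palindromes given below. The sequences are from RefSeq on GRCh38.p14, on the plus strand, at chr19:50854665-50854914 for KLK3 and chr19:50873189-50873438 for KLK2, and the capitals mark the half-site.
KLK3: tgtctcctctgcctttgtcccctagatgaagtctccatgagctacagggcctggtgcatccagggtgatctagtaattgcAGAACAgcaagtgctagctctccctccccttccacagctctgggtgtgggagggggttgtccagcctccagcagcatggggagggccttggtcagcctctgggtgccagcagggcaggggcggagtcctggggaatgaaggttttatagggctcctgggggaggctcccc
KLK2: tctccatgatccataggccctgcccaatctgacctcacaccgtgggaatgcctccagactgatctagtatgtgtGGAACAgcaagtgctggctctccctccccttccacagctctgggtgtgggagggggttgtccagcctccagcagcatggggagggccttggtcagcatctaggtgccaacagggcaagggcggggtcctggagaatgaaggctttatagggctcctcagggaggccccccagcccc
The half-site is AGAACA in KLK3, beginning 170 bases before the start, and GGAACA in KLK2, beginning 176 bases before it. Aligned to each other, the windows were identical at 205 of 238 positions (86.1%). The motifs were counted on both strands in windows from 250 bases before to 50 bases after the start. The AGAACA half-site occurred in 17 of 207 genes called higher (8.21%), in 6 of 56 called lower (10.7%) and in 1350 of all 13413 genes with a window (10.1%). GGAACA occurred in 24 of the 207 (11.6%), 5 of the 56 (8.93%) and 1568 of the 13413 (11.7%). The palindrome GNACANNNTGTNC, which overlaps the half-sites, was found in 1 gene called higher, EEF2K, in 0 called lower and in 28 of all genes (0.209%), and its strict form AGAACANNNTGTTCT in 0 of all windows. A match is a description of letters, and windows of this length do not reach the distal enhancers.

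DHT changed 395 of 27574 genes (1.43%) at an adjusted p under 0.05 in the authors' deposited table, of which 312 were higher (1.13%) and 83 lower (0.301%). The rises were also larger than the falls. Of the 312 higher genes, 80 were at least 4-fold higher and 37 at least 8-fold, and their median log2 change was 1.17. Of the 83 lower genes, 4 were at least 4-fold lower and 0 at least 8-fold, and their median was -0.75. Of the higher genes, 106 averaged under 100 normalized counts and 18 had a vehicle mean under 1. For the lower genes these numbers were 25 and 0. A gene near absence with vehicle can show a large rise but no large fall, so sizes in the 2 directions are not fully comparable. The 2-fold mark was reached by 178 of the higher genes (0.646% of all genes) and 22 of the lower ones (0.0798%). When the change itself was tested against 1.5-fold with a Wald test and Benjamini-Hochberg adjustment over all genes, 81 genes were higher beyond that size (0.294%) and 3 were lower (0.0109%). The 3 were BAMBI, SDC4 and SLC30A10, a manganese exporter that is named because the count was small and was chosen after its values were seen.

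**Figure D1:**
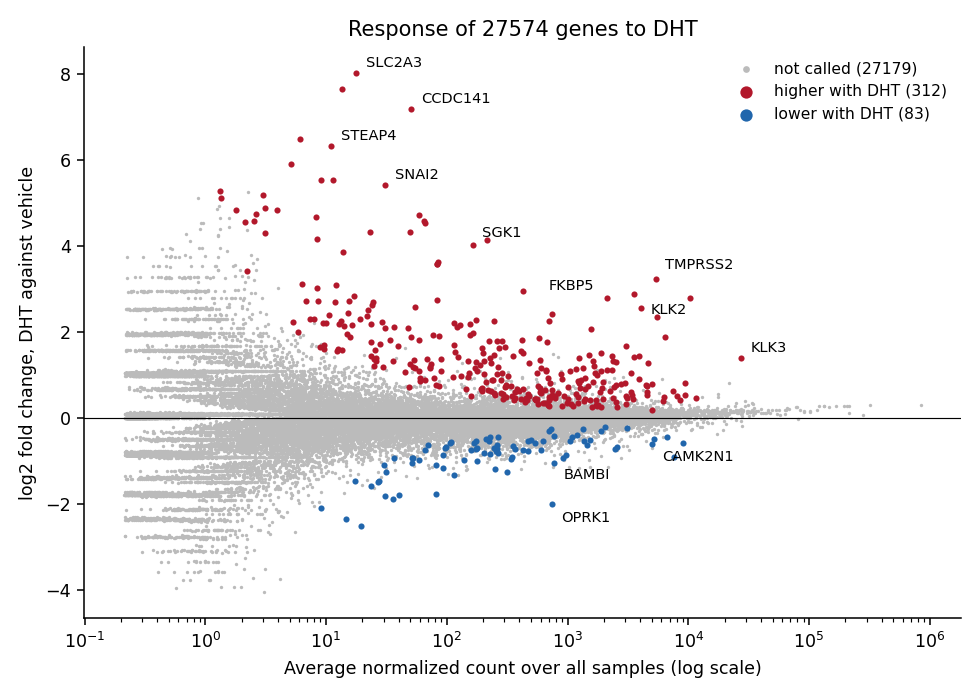
Log2 fold change of DHT against vehicle for 27574 genes against the average normalized count over all samples, on a log axis. Each point is a gene, red for the 312 called higher, blue for the 83 called lower and grey for the rest; the higher genes extend to a log2 change of 8.02 and the lower ones to -2.52.

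The tables hold 1 fold change, standard error (SE) and p per gene and no value per sample, so depth per library is unknown and overlap between replicates could not be seen. Group means in normalized counts were recovered from the average over 18 samples and the 5 comparisons, and are approximate for low genes. At least 100 on average was reached by 10819 genes. Among those, 206 were higher (1.90%), 58 were lower (0.536%), and the median log2 change was 0.01. The median SE was 0.27, and a median coefficient of variation of 22.4% was recovered from the SE. The coefficient reflects the dispersion fitted to each gene, which was nearly the same in the enzalutamide-alone comparison, and is not the observed spread of these 6 samples. In bulk RNA a change per cell and a change in the share of responding cells cannot be told apart.

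Pioneer factors and their partners were mostly not called. FOXA1, the pioneer factor that opens prostate enhancers, had a recovered mean of 8277 normalized counts with vehicle and 8764 with DHT, and its 95% interval of -0.04 to 0.21 lay inside 1.5-fold. The intervals of HOXB13 (-0.95 to 0.22) and GATA2 (-0.66 to -0.04), further lineage factors of prostate cells, were wider, and neither gene was called, with adjusted p of 0.999 and 0.652 in the authors' deposited table. Of the 11 measured genes of this list 2 rose and 0 fell. GRHL2, an epithelial transcription factor, was 1 of those that rose and went from 1609 to 4391 (log2 1.45, SE 0.24, adjusted p = 2.28e-07 by the authors' deposited table).

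Of 14 steroid receptor chaperones and co-chaperones 1 rose and 0 fell, the median being 0.07. The one was FKBP5, a co-chaperone whose induction by steroid receptors is well known. Its mean went from 839 normalized counts with vehicle to 5853 with DHT, a 6.97-fold rise in the authors' deposited table (adjusted p = 4.92e-33). Of 27 steroid receptor coregulators 1 rose, ZMIZ1, a PIAS-like coactivator (log2 1.13, SE 0.11, adjusted p = 6.88e-22 by the authors' deposited table), and 0 fell. Among 38 nuclear receptors 2 rose and 0 fell. They were the orphan receptor NR4A1 (1.27, SE 0.29, adjusted p = 0.000945) and the retinoic acid receptor RARB (1.16, SE 0.31, adjusted p = 0.0137), given as log2 changes from the authors' deposited table. The glucocorticoid receptor gene NR3C1 was low, at 1.95 normalized counts per kb of exon with vehicle against 226 for TMPRSS2.

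Of 21 measured genes on a list of prostate secretory proteins 7 rose and 0 fell, with a median log2 change of 0.12. TMPRSS2, the membrane serine protease whose promoter is often fused to ETS genes in prostate cancer, went from a mean of 1383 to 12970 normalized counts, with a 95% interval of 3.03 to 3.43 for the log2 change. Its coefficient of variation, recovered from the fitted dispersion, was 8.49%, against a median of 22.4% among genes averaging at least 100.

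KLK3 was already abundant before the hormone, with 15915 normalized counts against 41849 after it. Its relative rise of 2.63-fold was therefore from a higher base than the 5.86-fold rise of KLK2, from 1415 to 8283, both folds in the authors' deposited table. Per kb of exon KLK3 stood at 3431 with vehicle and 9021 with DHT, TMPRSS2 at 226 and 2120, and KLK2 at 221 and 1295. KLK3 thus stayed the most abundant of these 3 genes on that scale, while TMPRSS2 and KLK2, close together with vehicle, lay apart with DHT. Of 11 kallikrein genes, KLK2 and KLK3 rose and 0 fell. KLK4, a prostate kallikrein nearby, had a log2 change of 0.72 by the authors' deposited table (SE 0.36, adjusted p = 0.888) and was not called.

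The other members of the secretory protein list that rose were F5, ORM1, ORM2 and SORD, the last an enzyme of metabolism rather than a secreted protein. Coagulation factor V, encoded by F5, went from 20.1 to 247 normalized counts (log2 3.62, SE 0.30, adjusted p = 8.35e-30 by the authors' deposited table). ORM1 and ORM2, adjacent genes for the acid glycoproteins, had recovered vehicle means under 1 and DHT means of 22.8 and 30.1. Their log2 changes of 6.48 (SE 1.24) and 5.52 (SE 0.88) by the authors' deposited table rest on that near absence, and no fold is given. SORD, the sorbitol dehydrogenase gene, rose by 0.47 (SE 0.14, adjusted p = 0.0369 by the authors' deposited table), and was not called after each change was centred on genes of like GC content (adjusted p = 0.0593).

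Of 15 surface antigens used as prostate targets 3 rose and 0 fell. SLC45A3, which encodes prostein, went from 2112 to 10809 normalized counts. TRPM8, the cold-sensing cation channel, went from 39.4 to 151 (log2 1.94, SE 0.27, adjusted p = 1.26e-10 by the authors' deposited table). STEAP4, a metalloreductase gene, had a recovered mean of 0.581 with vehicle and 46.5 with DHT.

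**Figure D2:**
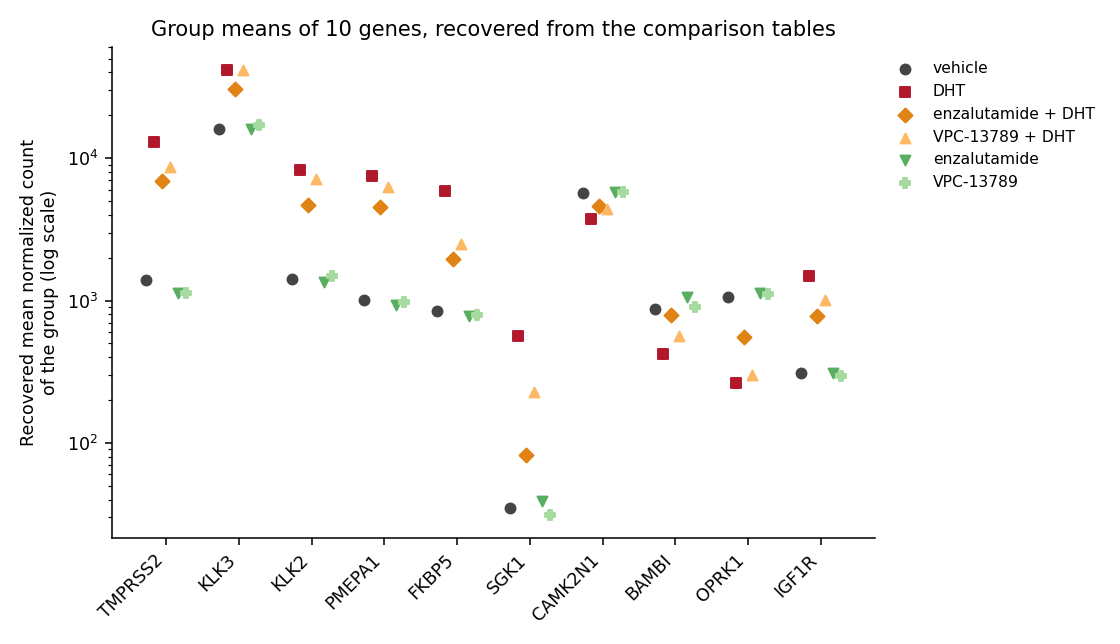
Recovered mean normalized counts of 10 genes in the 6 groups on a log axis, 1 symbol per group mean of 3 samples with no error bar because the tables give no values per sample. For TMPRSS2 the vehicle mean is 1383 and the DHT mean 12970, with the antagonist groups without DHT at 1121 and 1127.

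The other groups show the same genes with an antagonist present. SGK1 stood at 34.7 normalized counts with vehicle, 567 with DHT, 82.1 with enzalutamide plus DHT and 226 with VPC-13789 plus DHT. KLK3 stood at 30792 with enzalutamide plus DHT and at 41846 with VPC-13789 plus DHT, against 41849 with DHT alone. The group with VPC-13789 plus DHT also differed from DHT alone in genes that were not called with DHT. The mitochondrial gene MT-CO1 stood at 483237 against 291155, and the chaperone gene HSP90AA1 at 10448 against 20264. How far such differences bear on KLK3 was not tested. These are recovered means set side by side, with no test. Without DHT, the compounds had almost no calls against vehicle in the authors' deposited tables. Enzalutamide alone changed 1 gene (0.00363%), with 186 genes at an unadjusted p under 0.05, and VPC-13789 alone changed 0 (0%), with 212. The gene was ZBTB16, which fell with enzalutamide by 0.59 on the log2 scale (SE 0.12, adjusted p = 0.0139 by the authors' deposited table) and rose with DHT. These comparisons share the vehicle samples with the comparison of DHT.

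Of 35 genes for factors linked to androgen action 10 rose and 1 fell, with a median log2 change of 0.27. ZBTB16, a zinc finger repressor also called PLZF, went from 218 to 764 normalized counts (log2 1.81, SE 0.10, adjusted p = 1.11e-67 by the authors' deposited table). MAF, a leucine zipper factor, went from 160 to 1240. PER1, a core repressor of the circadian clock, went from 273 to 992 (1.86, SE 0.28, adjusted p = 8.27e-09), and CEBPD, a leucine zipper factor of acute responses, from 198 to 411 (1.05, SE 0.14), both as log2 changes in the authors' deposited table. KLF15 and TSC22D1 rose by less, at 0.87 (SE 0.12) and 0.77 (SE 0.10) on the log2 scale of the authors' deposited table. HOXC13 was the member that fell.

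Further regulators among the genes of highest change or lowest adjusted p were TWIST1, SNAI2, TBX15 and GREB1. TWIST1, known from mesenchymal programs, went from 142 to 493 normalized counts (log2 1.80, SE 0.15, adjusted p = 4.38e-32 by the authors' deposited table). SNAI2, a transcriptional repressor also known from mesenchymal programs, went from 2.43 to 105, and the T-box gene TBX15 from 3.30 to 66.7. Their log2 changes in the authors' deposited table were 5.43 (SE 0.57) and 4.33 (SE 0.45), both from near absence. GREB1, a chromatin-bound cofactor first known as an estrogen-induced gene, went from 164 to 571 (1.80, SE 0.22, adjusted p = 4.16e-14 by the authors' deposited table).

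Glucocorticoids induce some of the same genes through a receptor that recognises nearly the same DNA element. Of 18 such genes 9 rose and 0 fell, with a median log2 change of 0.54. Besides FKBP5, SGK1, ZBTB16, PER1, CEBPD and ERRFI1 they included NFKBIA, which encodes an inhibitor of NF-kB (log2 1.01, SE 0.12, adjusted p = 6.40e-15 by the authors' deposited table), and CRISPLD2, a secreted protein gene (1.30, SE 0.16, adjusted p = 2.79e-13). Of 21 immediate early genes 2 rose and 0 fell, namely FOSL2, an AP-1 subunit (0.70, SE 0.09, adjusted p = 1.69e-11 by the authors' deposited table), and NR4A1.

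**Figure D3:**
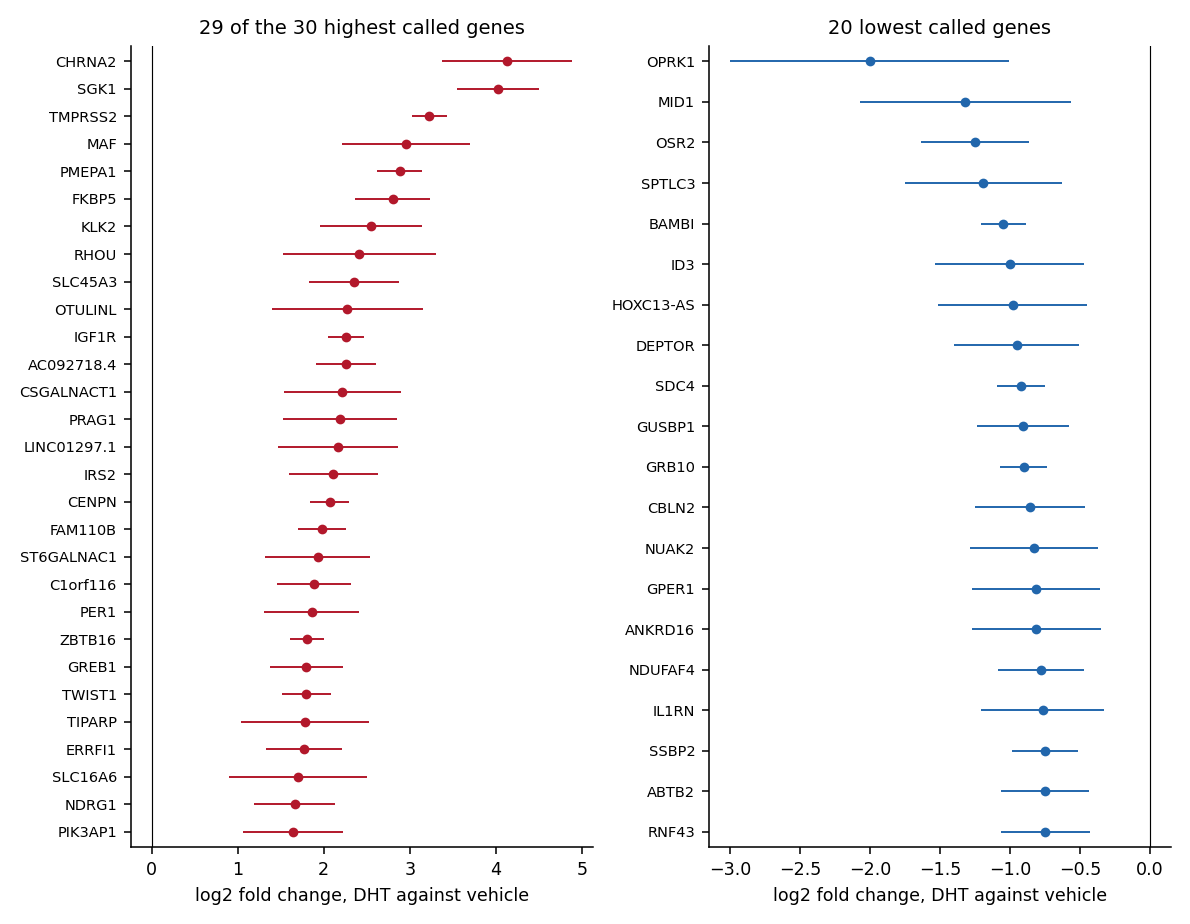
Log2 fold changes of 29 of the 30 genes called higher with the highest change and the 20 called lower with the lowest change among genes averaging at least 100 normalized counts; points are the authors' deposited values and bars their 95% intervals. CHRNA2 tops the higher genes at 4.13, and OPRK1 is the lowest, at 4.01-fold lower; MID1 and NDUFAF4 were not called after centring on genes of like GC content.

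Kinase and GTPase signalling had more called members than any other of the 47 lists except the hallmark androgen genes. By share called it stood at 46.2%, against 50% for the glucocorticoid-shared targets. The lists differ in size and were chosen with earlier results of these data known, so the ranking is a description with no test. Of 39 measured members 14 rose and 4 fell, with a median log2 change of 0.10. Genes of the insulin-like growth factor branch were called in both directions. IGF1R, the receptor for insulin-like growth factors, went from 309 to 1485 normalized counts, 4.81-fold higher in the authors' deposited table (SE 0.11 on the log2 scale, adjusted p = 2.27e-96). The adaptor IRS2 went from 61.6 to 266 (log2 2.11, SE 0.26, adjusted p = 4.47e-13 by the authors' deposited table), and the related adaptor IRS1, named after its values were seen, rose by 1.22 (SE 0.24, adjusted p = 4.49e-05).

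GRB10, an adaptor that restrains insulin and insulin-like growth factor receptors, went the other way, from 9149 to 4890 normalized counts (log2 -0.90, SE 0.09, adjusted p = 1.36e-22 by the authors' deposited table). DEPTOR, an inhibitor of the mTOR kinase, fell from 462 to 239 (-0.95, SE 0.23, adjusted p = 0.00242 by the authors' deposited table). SGK1, a kinase downstream of the same phosphoinositide branch, rose 16.3-fold in the authors' deposited table. LRIG1 and ERRFI1, inhibitors of the epidermal growth factor receptor, both rose. LRIG1 went from 1154 to 2874 (1.32, SE 0.13, adjusted p = 3.08e-21) and ERRFI1 from 431 to 1474 (1.77, SE 0.23, adjusted p = 1.40e-12), as log2 changes in the authors' deposited table.

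Calcium-calmodulin signalling was represented by CAMKK2 and CAMK2N1. CAMKK2, a kinase upstream of AMPK, went from 2459 to 6660 normalized counts (log2 1.44, SE 0.15, adjusted p = 4.33e-20 by the authors' deposited table). CAMK2N1, an inhibitor of calcium-calmodulin kinase II, fell from 5656 to 3730 (-0.60, SE 0.07, adjusted p = 3.32e-14 by the authors' deposited table). Of 23 dual-specificity phosphatases DUSP4 rose (0.74, SE 0.16) and DUSP5 fell (-1.04, SE 0.29) in the authors' deposited table.

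Among 32 TGF-beta and BMP signalling genes 1 rose and 2 fell, with a median of 0.08. PMEPA1, which blocks TGF-beta signalling by binding SMAD proteins, went from 1008 to 7440 normalized counts. BAMBI, a decoy receptor of the family, fell from 871 to 421 with a recovered coefficient of variation of 5.49%, and ID3, a BMP target gene, fell from 207 to 103 (95% interval of the log2 change -1.54 to -0.47, adjusted p = 0.0154 by the authors' deposited table). The sister target ID1 had a log2 change of -0.83 by the authors' deposited table but was not called (SE 0.28, adjusted p = 0.118).

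**Figure D4:**
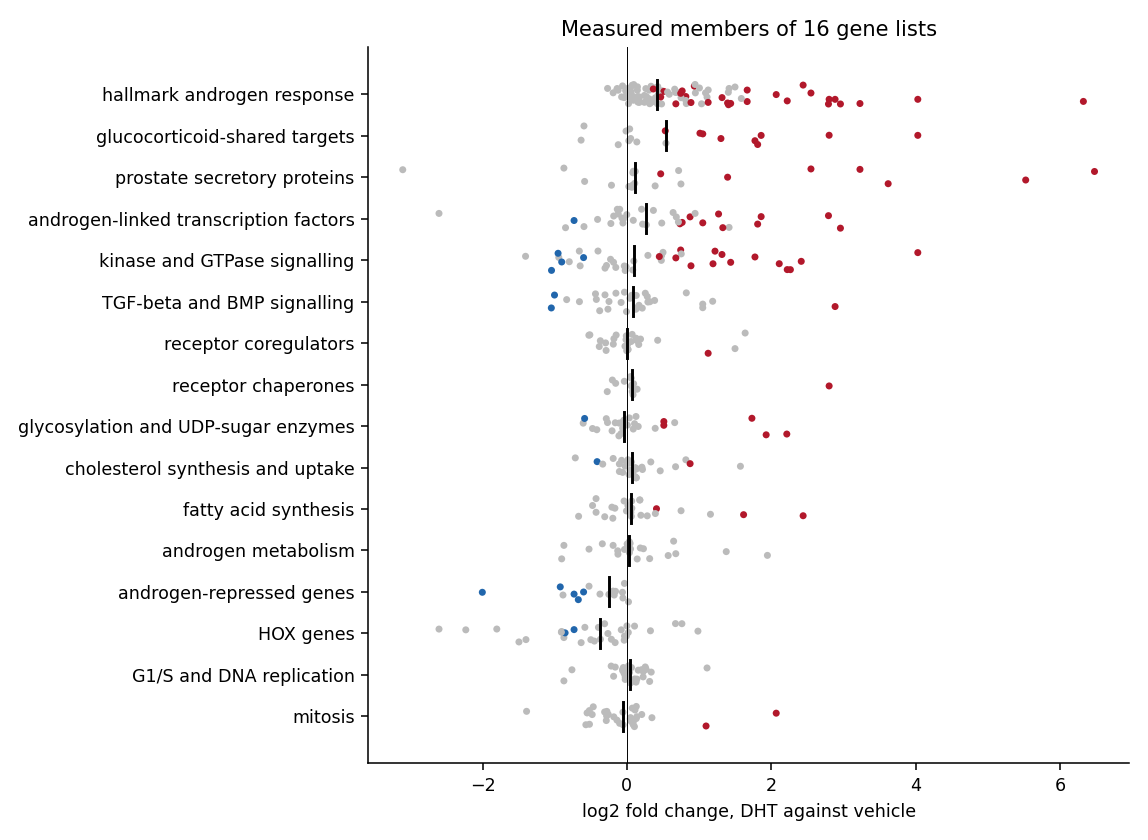
Log2 fold changes of the measured members of 16 gene lists; each point is a gene, red if called higher, blue if called lower and grey if not called, and the black bar is the list's median. The median lies at 0.54 for glucocorticoid-shared targets, 0.42 for the hallmark androgen genes, -0.25 for androgen-repressed genes and -0.37 for HOX genes, of which 6 of 31 averaged at least 100. Over all genes the median was 0, and over genes averaging at least 100 it was 0.01.

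Enzymes of sugar transfer changed in both directions. Of 28 glycosylation and UDP-sugar genes 5 rose and 1 fell, and the median was -0.04, or 0.11 after centring on genes of like GC content. ST6GALNAC1, the sialyltransferase that makes the sialyl-Tn antigen, went from 68.2 to 260 normalized counts (log2 1.93, SE 0.31, adjusted p = 8.05e-08 by the authors' deposited table). CSGALNACT1, which starts chondroitin sulfate chains, went from 58.9 to 274 (2.22, SE 0.35, adjusted p = 3.60e-08 by the authors' deposited table). ST3GAL1, a sialyltransferase that caps core O-glycans, fell from 10148 to 6759 (-0.59, SE 0.08, adjusted p = 4.97e-10 by the authors' deposited table). B4GALT1, a galactosyltransferase, rose by 0.51 (SE 0.07) and CHST2, a sulfotransferase, by 1.73 (SE 0.31) on the log2 scale of the authors' deposited table.

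Lipid and steroid metabolism lists held 0 to 3 called genes each. Of 25 fatty acid genes 3 rose and 0 fell (12% called, against 1.43% of all genes), among them ACACA, the acetyl-CoA carboxylase that commits carbon to fatty acids (log2 0.41, SE 0.09, adjusted p = 0.00106), and the elongase ELOVL7 (1.62, SE 0.46, adjusted p = 0.0284), both in the authors' deposited table. The fatty acid list held 20 genes averaging at least 100, a level at which 1.90% of genes were higher and 0.536% lower. Of 30 cholesterol genes 2 were called (6.67%). VLDLR, a lipoprotein receptor, rose (0.88, SE 0.17) and HSD17B7, a sterol reductase, fell (-0.41, SE 0.09) in the authors' deposited table. Of 23 androgen metabolism genes 0 were called, and 13 of them had intervals that reached 2-fold. UGT2B15, which inactivates DHT by glucuronidation, had a log2 change of -0.53 (SE 0.31, adjusted p = 0.999 by the authors' deposited table), and 0 of 7 UGT2B genes were called.

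In the secretory pathway and in transport the calls were scattered. Of 36 genes of protein folding in the endoplasmic reticulum 2 rose and 0 fell, the stress sensor ERN1 (log2 1.17, SE 0.23, adjusted p = 4.98e-05 by the authors' deposited table) and HERPUD1, a component of protein degradation there (0.72, SE 0.19, adjusted p = 0.0126). Among 293 solute carriers 11 rose and 1 fell. SLC41A1, a magnesium transporter, went from 1206 to 3449 normalized counts (1.52, SE 0.11, adjusted p = 1.60e-43 by the authors' deposited table), and the mitochondrial carrier SLC25A33 from 1535 to 2337 (0.61, SE 0.07). SLC2A3, a neuronal-type glucose transporter, and SLC38A4, an amino acid transporter, had recovered vehicle means of 0.258 and 0.267 and DHT means of 66.7 and 54.0. Of 62 RAB GTPases of vesicle traffic 2 rose and 0 fell, RAB4A (0.75, SE 0.08) and RAB3B (0.91, SE 0.27) in the authors' deposited table. The shares called were 5.56% of the folding genes, 4.10% of the solute carriers and 3.23% of the RAB genes, against 1.43% of all genes. Of the 62 RAB genes 46 averaged at least 100, a level at which 1.90% of genes were higher and 0.536% lower.

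The cell cycle lists held 2 called genes, both of mitosis. Of 34 genes of the G1/S transition and DNA replication 0 were called, and 15 had intervals inside 1.5-fold. Of 33 mitosis genes 2 rose and 0 fell (6.06%, against 1.43% of all genes). Of the 33, 31 averaged at least 100, a level at which 1.90% of genes were higher and 0.536% lower. CENPN, a kinetochore protein that reads the centromeric nucleosome, went from 793 to 3327 normalized counts (log2 2.07, SE 0.12, adjusted p = 2.16e-67 by the authors' deposited table), and the condensin subunit NCAPD3 from 1570 to 3357 (1.10, SE 0.13, adjusted p = 1.67e-14).

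Stress and inflammatory lists held 0 to 3 called genes each. Of 20 p53 targets TNFRSF10B, a TRAIL death receptor, rose from 2269 to 3948 normalized counts (log2 0.80, SE 0.09, adjusted p = 6.64e-18 by the authors' deposited table) and SUSD6 fell (-0.62, SE 0.11). Of 20 hypoxia genes NDRG1, a stress-responsive tumour suppressor candidate, went from 1953 to 6197 (1.67, SE 0.24, adjusted p = 1.06e-09 by the authors' deposited table), and the only other one called was SLC2A3. Within the 24 interferon and NF-kB genes the inhibitors NFKBIA and TNFAIP3 rose, the latter by 1.26 (SE 0.26, adjusted p = 0.000180 by the authors' deposited table). NFKB1, the gene of the p105 and p50 subunit, fell from 1223 to 840 (-0.54, SE 0.08, adjusted p = 2.69e-09 by the authors' deposited table). Of 13 heat shock genes, 82 ribosomal protein genes and 13 mitochondrially encoded protein genes 0 were called.

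Of 17 genes known to be repressed by androgen 5 fell and 0 rose, with a median log2 change of -0.25. SDC4, a heparan sulfate proteoglycan of focal adhesions, fell from 1100 to 580 normalized counts (-0.92, SE 0.09, adjusted p = 2.68e-23 by the authors' deposited table). ACKR3, the scavenger receptor of the chemokine CXCL12, fell from 3016 to 1890 (-0.67, SE 0.14, adjusted p = 0.000215 by the authors' deposited table). OPRK1, the kappa opioid receptor gene, fell from 1059 to 264, with a recovered coefficient of variation of 43.0%. The remaining members that fell were CAMK2N1 and HOXC13.

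Of 31 HOX genes 2 fell and 0 rose, with a median of -0.37. Only 6 of the 31 averaged at least 100 normalized counts, and 18 that were not called had intervals reaching 2-fold, so the median rests mostly on low genes. HOXC13 fell from 401 to 241 normalized counts (log2 -0.73, SE 0.12, adjusted p = 9.89e-08 by the authors' deposited table) and HOXC9 from 105 to 58.1 (-0.86, SE 0.20, adjusted p = 0.00248). Their neighbour HOXC12 had a log2 change of -0.63 (SE 0.25, adjusted p = 0.358 by the authors' deposited table) and was not called. OSR2, a zinc finger gene of limb and tooth development, fell from 389 to 164 (-1.25, SE 0.20, adjusted p = 5.49e-08 by the authors' deposited table). SPTLC3, a subunit of the first enzyme of sphingolipid synthesis, fell from 346 to 151, GPER1, a membrane estrogen receptor gene, from 226 to 128, and RNF43, a negative regulator of Wnt receptors, from 182 to 108.

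Some of the called genes lay next to each other. In gene order on the GENCODE 29 annotation there were 24 runs of adjacent called genes holding 49 genes, of which 20 runs were higher throughout, 2 lower throughout and 2 mixed, and 8 adjacent pairs overlapped. The longest run was on chromosome 16, where CDYL2, a chromodomain gene, ARLNC1, an androgen-induced noncoding RNA, and CMC2, a mitochondrial assembly gene, rose by 1.15 (SE 0.32), 1.70 (SE 0.45) and 0.36 (SE 0.09) on the log2 scale of the authors' deposited table. CENPN starts within CMC2 on the other strand, at chr16:81006498-81033114 on GRCh38, and the noncoding gene AC092718.4 at chr16:81030770-81031485 lies inside it. AC092718.4 rose by 2.26 (SE 0.18) by the authors' deposited table, close to the 2.07 of CENPN. It lies on the same strand as CENPN, so strand could not separate their reads. For genes that overlap on opposite strands, such as CENPN and CMC2, whether counting used strand is not given in the sources used. Reads of such genes cannot be told apart either.

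The same limit touches PMEPA1 and NKILA, a noncoding RNA that restrains NF-kB and overlaps PMEPA1 on the opposite strand, which rose by 1.63 (SE 0.16, adjusted p = 1.92e-20 by the authors' deposited table). It also touches HOXC13 and HOXC13-AS, which overlap and both fell. NFKB1 and MANBA formed the other lower run, but MANBA was not called after centring on genes of like GC content (adjusted p = 0.796). Pairs that do not overlap included SLC2A12 and SGK1, and KLK3 and KLK2, whose transcripts shared 1.22% of the 31-base words of the smaller set.

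Near-identical genes were counted separately and are uncertain. All 31-base words of TRIM49D2 also occur in TRIM49D1 (100%), and their log2 changes in the authors' deposited table were 3.59 and 3.58 with the same SE of 0.38. ORM1 and ORM2 shared 59.3% of the smaller gene's words, and SORD and its pseudogene SORD2P 72.9%. The noncoding genes AL929601.3, AL512624.2 and POTEH-AS1 shared 88.1% to 90.7%, with log2 changes of 4.58, 4.53 and 4.73 in the authors' deposited table. Reads of such genes can be split between copies, so their changes are not separate observations.

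Among chromosomes 1 to 22 and X, the share of genes called was highest on chromosome 8, at 22 higher and 7 lower of 985 (2.94%), and lowest on chromosome 19, at 7 higher and 2 lower of 1775 (0.507%). By class, 271 protein-coding genes were higher and 72 lower of 16034 (2.14%). Intergenic long noncoding genes had 13 and 4 of 2357 (0.721%), and antisense genes 10 and 4 of 2627 (0.533%). These are counts with no test.

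The precision of the comparison differed between genes. The median SE was lowest, at 0.17, for genes averaging at least 100 whose longest transcript had a GC content of 45.2% to 52.3%, and 0.52 for those of 30.2% to 39.2%. The share of genes called was higher in the middle eighths than at either end, going from 0.891% in the lowest eighth of 1347 genes to 5.12% in the fifth and 0.965% in the highest. The median log2 change also moved with GC, from -0.24 in the lowest eighth to 0.09 in the highest. Over 10776 genes within this comparison the rank correlation of GC and log2 change was 0.50, given as a description, since genes share libraries and are not independent. Its part in the single calls was not tested, but after centring on genes of like GC 351 of the 395 calls remained.

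**Figure D5:**
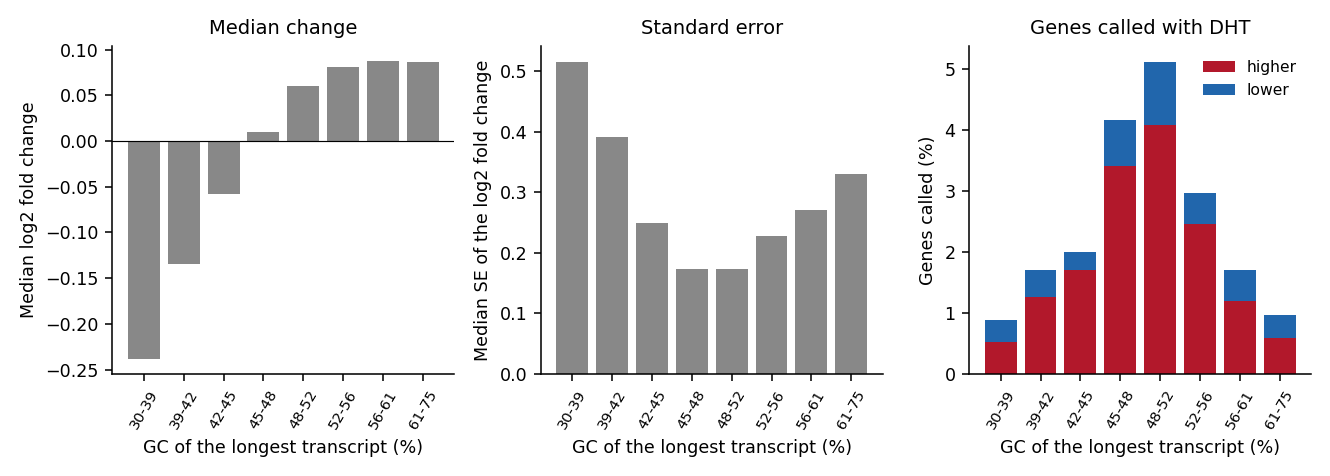
Median log2 change, median SE and percentage of genes called in 8 equal groups of 1347 genes by GC content of the longest transcript, for genes averaging at least 100 normalized counts. Bars in the right panel stack higher (red) and lower (blue) calls; the share called peaks at 5.12% where the SE is near its lowest, 0.17.

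Of 100 measured hallmark androgen response genes 27 rose and 0 fell, with a median log2 change of 0.42. The 27 had a median log2 change of 1.44, a median SE of 0.15 and a median GC content of 47.5%, and the 73 not called a median log2 change of 0.24, a median SE of 0.34 and a GC content of 43.2%. Of those 73, 62 had a positive log2 change and 9 had one of at least 1 in the authors' deposited table. They were LIFR, ELL2, ZBTB10, TNFAIP8, ABCC4, CDK6, HERC3, DNAJB9 and KRT19, with SE of 0.42 to 0.67. ELL2, an elongation factor subunit, had a change of 1.50 (SE 0.49, 95% interval 0.54 to 2.45, adjusted p = 0.0948) by the authors' deposited table, and LIFR, a cytokine receptor, 1.59 (SE 0.67, adjusted p = 0.513). TARP, the remaining hallmark gene, was not analysed here, but TRGC1 and TRGV9 of the T-cell receptor gamma locus that it is transcribed from both rose. TRGC1 went from 14.3 to 36.8 normalized counts (log2 1.36, SE 0.34, adjusted p = 0.00532 by the authors' deposited table). TRGV9 went from 0.277 to 6.56 (4.57, SE 1.31, adjusted p = 0.0279 by the authors' deposited table), a change that rests on near absence with vehicle. It was not called at an adjusted p under 0.01.

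A gene that was not called is not shown to be unresponsive. Of the 10819 genes averaging at least 100, 4347 (40.2%) had a 95% interval inside 1.5-fold in both directions, while 2198 that were not called had an interval reaching 2-fold. Genes of 100 or more that passed 2-fold without a call numbered 29, 13 higher and 16 lower, with a median SE of 0.56 and a median GC of 40.4%.

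Markers checked the labelled cell type. The recovered means of 14 luminal markers summed to 125083 with vehicle and 192321 with DHT. Of these markers 4 rose and 0 fell, among them the androgen-responsive TMPRSS2, KLK2 and KLK3. Of 7 measured basal markers 0 were called, and their recovered means summed to 240 with vehicle and 235 with DHT, with KRT5, KRT15 and TP63 not analysed here. Stromal and endothelial markers summed to 1493 and 1390, and 1 of 11 fell, COL3A1, by 1.48 on the log2 scale (SE 0.39) of the authors' deposited table. Blood and immune markers summed to 10.9 and 9.34, with 0 of 9 called. Neuroendocrine markers summed to 7846 and 6162, with 0 of 14 called. Most of that sum was SYT4, a synaptotagmin gene, at 6753 and 4916, whereas the chromogranin genes CHGA and CHGB, defining markers, stood at 1.43 and 0.184 with vehicle.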

How the data were processed

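The submitters' processing notes name FastQC, the aligner STAR 2.6.1c, the build GRCh38.p12, featureCounts for counting and DESeq2 for the comparisons. Filters, strandedness and the annotation release are not given in the sources used. The deposited average of normalized counts over all samples is a linear signal, per the file headers. Changes and their SE are log2 values that the authors deposited, and the Wald statistic is a deposited score. P-values, raw and adjusted, were taken as the authors deposited them.

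In all 27599 rows the statistic and p followed from the change and SE within 1e-06, and the adjusted p was reproduced by Benjamini-Hochberg over the 21178 rows that have one. A gene without an adjusted p (6418 of 27574) was not called. In 25 rows a date stood for a symbol, and these were left out. Annotation came from GENCODE 29 on GRCh38, matched by symbol for 27391 genes (99.3%), which may not be the authors' release. The mean of each group was recovered from the average and the 5 log2 changes, and the fitted dispersion, given as a coefficient of variation, from the SE. Dispersions from the enzalutamide-alone table lay within 5% for 99.95% of genes averaging at least 100.

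Calls used the authors' DESeq2 adjusted p under 0.05. Own steps were a Wald test beyond 1.5-fold, 95% intervals from 1.96 SE, list counts over 47 lists, and motif and 31-base word counts, with Python 3.11.15, pandas 2.3.3, numpy 2.4.6, scipy 1.17.1 and matplotlib 3.10.9; the statistical steps were tested on simulated data. GC centring subtracts the median of genes of like GC (20 bins) and keeps the SE. The genes named were the 30 highest and 20 lowest called genes averaging at least 100, the 10 called genes of lowest adjusted p under 100, up to 6 per list by p, genes in runs of neighbours and a panel of 12. The members and lists were chosen with earlier results of these data known. The labels call the replicates biological. Precision is given by the SE alone. Some genes that the rule names are not reported here.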

Additional observations from a re-analysis of the deposited data

How the results depend on the processing

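The number of genes called stayed within 1.5 times the 395 under every alternative run, between 284 at an adjusted p under 0.01 and 474 at 0.1. Without independent filtering it was 378, among genes averaging at least 100 it was 285, with changes centred on the median 391 and centred on genes of like GC 418 (317 higher, 101 lower). Counts that moved further were the lower genes at an adjusted p under 0.01 (50 against 83), the 2-fold lower genes at 0.01 (14 against 22) and, with fewer genes tested, among genes averaging at least 100 (7), where the 2-fold higher genes were 79 against 178. Beyond a fixed size, 84 genes were called at 1.5-fold, 40 at 2-fold and 52 among genes averaging at least 100. Genes bounded within 1.5-fold were 4758, and within 2-fold 10794. With the AGAACA half-site in place of the palindrome, 8.21% of higher genes held the motif against 0.483%.

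Of 150 named genes that were called, 115 were called at 0.01, 146 without filtering, 145 with median centring and 138 of 149 with GC centring, and 0 changed direction. Direction could change only under the centrings, because the other settings keep the deposited log2 change. The lists kept 74 to 93 of their 94 counts under these alternatives. No paired analysis was possible because the tables hold no values per sample, and leaving out a replicate could not be run for the same reason. The depth of each library is unknown, and the SE was larger for genes of low or high GC.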
